A study of Mus musculus with 2 samples.

Results

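Cells of the small intestine divide in the crypts and stop dividing as they move onto the villi, so the transcripts of the division machinery are low in a villus preparation. That machinery is expressed in waves. Before and during DNA synthesis (G1/S) the cell makes the replicative helicase, the sliding clamp and the enzymes that supply deoxynucleotides, largely under E2F factors. Before mitosis (G2/M) it makes the mitotic cyclins, kinases and spindle proteins, largely through promoters with CCAAT boxes and a cell cycle homology region (CHR). The genes described here are 32 widely used markers of those waves, taken by symbol from the deposited table, with the row of the highest mean where a symbol had several. Of the 32, 27 had a row among 20722 gene symbols: 12 of 15 of G1/S and replication and 15 of 17 of G2/M. Tk1, Tyms, Ccne2, Bub1 and Tpx2 were not analysed here.

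Messenger RNA of purified villi of the mouse small intestine was sequenced, with 1 library per genotype. The dKO-labelled library was C57BL/6 of genotype Rosa26-CreERT2 Cdkn2a-/- Ring1a-/- Ring1bf/f, which is null for Ring1a and loses Ring1b, the other E3 ligase of Polycomb repressive complex 1, once Cre is activated. The library labelled WT was C57BL/6 of genotype Rosa26-CreERT2 Cdkn2a-/-. Both were therefore without Cdkn2a, which encodes the p16 and p19 brakes on the G1/S transition. Both were given 3 tamoxifen injections and villi were taken 6 days later. Rosa26 is active in nearly all cell types, so Cre was not limited to the epithelium. The labels used here give neither age, sex nor the number of animals behind a library. With 1 library each, every difference below is one between 2 libraries and has no replicate check. No p-value was computed here for a difference between genotypes, and the exact binomial test below compares only the 2 libraries.

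The dKO-labelled library held 1058196 recovered reads and the WT library 775827. Intervals are 95% exact counting intervals, which cover counting error only. Scaled reads are recovered reads multiplied by the deposited scale of their library, and a ratio is scaled reads in the dKO-labelled library over those in the WT library. The scale carried a shift: the median log2 ratio of the 6001 genes with a mean of at least 20 normalised reads (measured genes) was 0.51, a ratio of 1.42, and ratios relative to that median are given beside the sums. The targeted genes were not lower beyond counting error. Rnf2 (Ring1b) had 82 reads in the dKO-labelled library and 59 in the WT library, and Ring1 (Ring1a) had 10 and 10. Whole-transcript counts do not show a deleted exon, so this is no check of the label. Xist had 1 read in the dKO-labelled library and 80 in the WT library, and Ddx3y had 131 and 0, so sex and genotype cannot be told apart.

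Promoters of a member of each wave are shown because they carry the elements by which the waves are usually told apart. They are those of the G1/S member with the most reads among those with an E2F core and of the G2/M member with the most reads among those with a CHR (Pcna had more reads than Rrm2, but its window held a CCAAT box alone). They were read from RefSeq on GRCm38.p6, 250 bases up to the start site, 5′ to 3′. Capitals mark an E2F core, a CCAAT box or a CHR on either strand. As an E2F core the search took TTCCCGC and its variants. These were TTCGCGC with a central G, the form TTGCCGC with the G one base earlier, and TTGGCGC with both. The CCAAT box was searched by the letters of its name and the CHR as TTTGAA. Rrm2, the regulated subunit of ribonucleotide reductase, lies at chr12:24708004-24708253 on the plus strand, and Hmgb2, a DNA-bending chromatin protein abundant in dividing cells, at chr8:57511593-57511842 on the plus strand.
Rrm2: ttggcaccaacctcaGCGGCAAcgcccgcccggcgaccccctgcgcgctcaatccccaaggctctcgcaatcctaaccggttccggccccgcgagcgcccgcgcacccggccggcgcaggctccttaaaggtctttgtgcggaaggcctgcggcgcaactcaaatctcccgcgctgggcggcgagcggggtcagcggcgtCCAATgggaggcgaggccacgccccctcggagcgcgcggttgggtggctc
Hmgb2: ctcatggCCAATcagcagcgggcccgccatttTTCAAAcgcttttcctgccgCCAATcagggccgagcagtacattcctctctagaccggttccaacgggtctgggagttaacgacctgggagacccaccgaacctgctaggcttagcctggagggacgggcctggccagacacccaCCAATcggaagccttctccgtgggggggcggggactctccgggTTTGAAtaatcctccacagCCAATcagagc
In Rrm2 the E2F core lay on the minus strand 235 to 229 bases before the start and the CCAAT box 50 to 46 bases before it. Hmgb2 held 4 CCAAT boxes and 2 CHR matches, 1 of them 30 to 25 bases before the start, and 0 E2F cores.

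A promoter was listed for 11 G1/S and 13 G2/M members, and the first listed of each member was used. The set of all promoters instead held every listed one, 32851 of 27025 genes. An E2F core was found in 6 of 11 G1/S promoters and in 3 of 13 G2/M promoters, and in 7.89% of all 32851 promoters of the same length. A CHR was found in 1 of 11 G1/S promoters and in 7 of 13 G2/M promoters, and in 15.99% of all. CCAAT boxes were found in 8 of 11 and 12 of 13, and in 33.8% of all. Matches of different motifs were counted separately, also where they overlap, and a match is a description of the sequence, not a bound site.

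The 27 members had few reads in both libraries and more in the dKO-labelled one. Together they had 587 reads in the dKO-labelled library, or 555 CPM (reads at a common library total, 511 to 601), and 267 in the WT library, or 344 CPM (304 to 388). The median member had 14 reads in the dKO-labelled library (range 1 to 124) and 5 in the WT library (0 to 83), where the median of all symbols was 3 and 1. The ratio of the sums was 1.98 (1.71 to 2.30), or 1.39 (1.20 to 1.62) against the measured-gene median. All 27 had more scaled reads in the dKO-labelled library. Of the 25 with over 3 reads in a library all did, where 76.4% of 10446 such genes did. A read was found for 27 members in the dKO-labelled library and for 26 in the WT library, against 67.2% and 59.2% of all genes. In bulk RNA, more dividing cells and more of these transcripts per cell cannot be told apart.

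**Figure D1:**
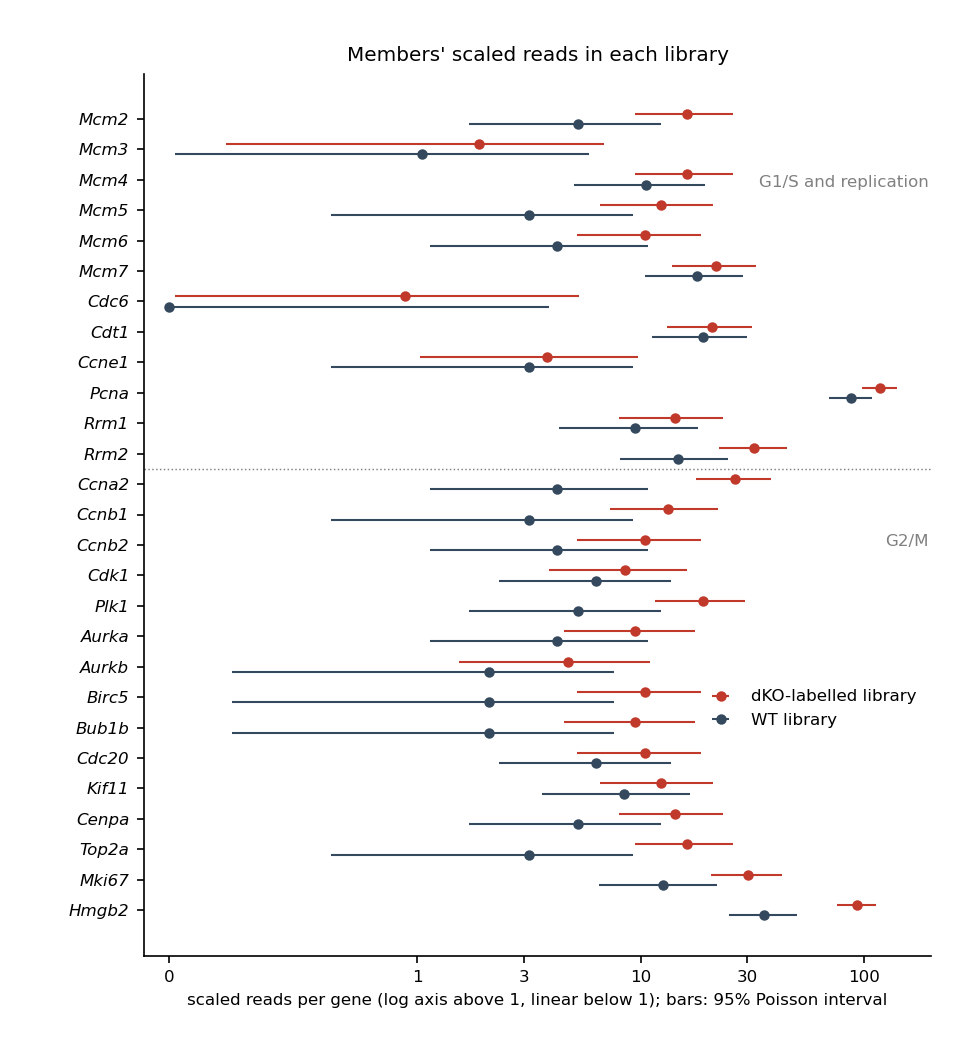
Scaled reads of the 27 members in the dKO-labelled library (red) and the WT library (dark blue), with 95% Poisson intervals, on an axis that is logarithmic above 1 and linear below. Each red point lies to the right of its blue point, Pcna and Hmgb2 lie farthest right, and most intervals overlap.

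Per length, the members lay below most of the enterocyte markers. Pcna, the sliding clamp of the replication fork, was the highest at 77.6 scaled reads per kilobase in the dKO-labelled library and 57.6 in the WT library. Hmgb2 followed at 35.4 and 13.6. Rrm2 had 14.7 in the dKO-labelled library and 6.72 in the WT library, where Cdt1 was above it at 8.66. Mki67, the surface coat of mitotic chromosomes and the standard histological marker of dividing cells, had 3.02 in the dKO-labelled library and 1.26 in the WT library over a transcript of 10061 bases. The actin-bundling protein gene Vil1, a marker of the enterocyte brush border, had 557 scaled reads per kilobase in the dKO-labelled library and 329 in the WT library, and the villus keratin gene Krt20 had 1057 and 1074. The disaccharidase gene Sis, at 57.6 and 6.62, was below Pcna in both libraries, and the lactase gene Lct, at 130.2 and 31.4, was below Pcna in the WT library. All 11 enterocyte markers with a row were detected in both libraries. So were all 7 Paneth cell markers, which belong to crypts. Lyz1 was the highest of these 7, at 1042 scaled reads per kilobase in the dKO-labelled library and 615 in the WT library. Detection of enterocyte markers therefore does not show that the villi were free of crypt cells.

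The sums of the waves differed in size, though their intervals overlapped once the member with the most reads of each was left out. G1/S and replication members summed to 283 reads in the dKO-labelled library and 167 in the WT library, a ratio of 1.53 (1.26 to 1.86), and against the measured-gene median 1.07 (0.885 to 1.31). G2/M members summed to 304 reads in the dKO-labelled library and 100 in the WT library, a ratio of 2.74 (2.18 to 3.47), and relative to that median 1.93 (1.53 to 2.44). The G1/S sum was thus near the median measured gene and the G2/M sum above it. Measured genes have more reads than most members: the median ratio was 1.62 over all genes with over 3 reads in a library, 2.103 at 7 to 14 reads in both libraries together and 1.80 at 15 to 29 and at 30 to 69. The G1/S ratio was 0.98 (0.806 to 1.19) with upper-quartile scaling and 1.06 (0.873 to 1.29) with edgeR's TMM scaling, so its direction follows the scaling, whereas the G2/M ratio was 1.76 (1.40 to 2.23) and 1.90 (1.51 to 2.41).

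A share of the members' own reads needs no scaling between libraries. G2/M members took 51.8% of the member reads in the dKO-labelled library (304 of 587, 47.7 to 55.9) and 37.5% in the WT library (100 of 267, 31.6 to 43.6). The intervals did not overlap. Pcna made up 43.8% of the G1/S reads in the dKO-labelled library and 49.7% in the WT library, and Hmgb2 32.2% and 34% of the G2/M reads. Without Hmgb2, which is also transcribed outside dividing cells, the G2/M share was 42.1% in the dKO-labelled library (37.7 to 46.6) and 28.3% in the WT library (22.6 to 34.6). Without Pcna it was 65.7% (61.1 to 69.98) and 54.3% (46.9 to 61.7), and the intervals overlapped. Without the members that share an exon with a gene on the opposite strand or have a named pseudogene copy, it was 61.8% (56.5 to 66.9) in the dKO-labelled library and 53.8% (45.3 to 62.1) in the WT library, and the intervals overlapped.

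**Figure D2:**
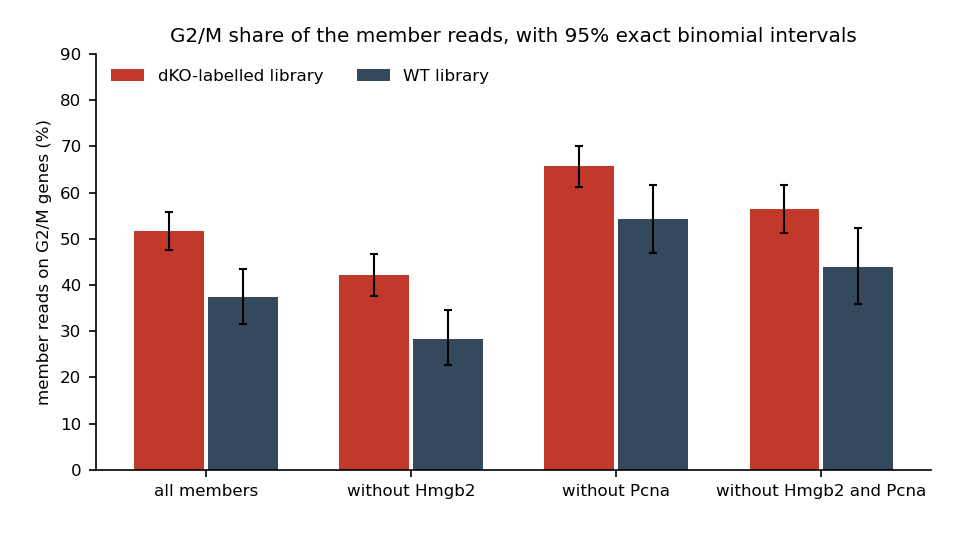
Percentage of the member reads that fall on G2/M members in the dKO-labelled library (red) and the WT library (dark blue), for all members and without the member with the most reads of a wave, with 95% exact binomial intervals. The red bar is the taller in each pair, at 51.8% against 37.5% for all members.

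Within G1/S, the MCM genes encode the 6 subunits of the helicase that is loaded on origins and unwinds DNA. They summed to 83 reads in the dKO-labelled library and 40 in the WT library, a ratio of 1.87 (1.27 to 2.80), or 1.32 (0.892 to 1.97) against the measured-gene median. Mcm5 had 13 reads in the dKO-labelled library and 3 in the WT library, a ratio of 3.91 (1.07 to 21.4). Mcm2 had 17 and 5 reads, a ratio of 3.06 (1.09 to 10.6), and Mcm6 11 and 4, a ratio of 2.48 (0.735 to 10.7). These 3 had the higher ratios of the complex. Mcm4 had 17 reads in the dKO-labelled library and 10 in the WT library (1.53, 0.663 to 3.74), and Mcm7 had 23 and 17 (1.22, 0.624 to 2.43). Mcm3, with 2 reads and 1, was too low for a ratio. Exons of Plk1 overlap those of Gm44985 and exons of Mcm7 overlap those of Ap4m1 and Cops6 on the opposite strand. Cops6 had 247 reads in the dKO-labelled library and 163 in the WT library, and Ap4m1 had 4 and 11, the other direction.

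Among the other replication members, Cdt1, which brings the helicase to origins, had 22 reads in the dKO-labelled library and 18 in the WT library, a ratio of 1.10 (0.564 to 2.18). Its partner Cdc6 had 1 read and 0, where a count of 0 in the WT library allows up to 3 reads by the usual one-sided bound. That bound covers counting error only, not reads that were never assigned to the row. Cdc6 has 2 rows, of which the higher was used. Summing the rows of each symbol left the G1/S ratio and its interval at 1.53 (1.26 to 1.86), so the other row added no reads. Ccne1, the cyclin that starts S phase with its kinase, had 4 and 3 reads (1.20, 0.203 to 8.20). Pcna had 124 reads in the dKO-labelled library and 83 in the WT library, a ratio of 1.35 (1.01 to 1.80), below the 1.42 of the median measured gene. It has the named pseudogene copies Pcna-ps1 and Pcna-ps2, so its value is uncertain. For ribonucleotide reductase, which makes deoxynucleotides, the steady subunit Rrm1 had 15 reads in the dKO-labelled library and 9 in the WT library (1.502, 0.616 to 3.89) and the S-phase subunit Rrm2 34 and 14 (2.19, 1.14 to 4.42). Rrm2 was the G1/S member whose window is printed above, and the only one of its wave past 2-fold among those with a mean of at least 20.

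Within G2/M, Ccna2, the cyclin of S phase and of entry into mitosis, had 28 reads in the dKO-labelled library and 4 in the WT library, a ratio of 6.31 (2.21 to 24.8), the highest of all members. Exons of Exosc9 on the opposite strand overlap those of Ccna2, and Exosc9 itself had 46 reads in the dKO-labelled library and 12 in the WT library, and without strand the reads of the pair cannot be told apart. Ccnb1 and Ccnb2, the cyclins that drive mitosis, had 14 reads in the dKO-labelled library against 3 in the WT library (4.21, 1.17 to 22.8) and 11 against 4 (2.48, 0.735 to 10.7). Each has a named pseudogene copy. Their partner kinase Cdk1 had 9 and 6 reads, a ratio of 1.35 (0.43 to 4.62), near the 1.42 of the median measured gene. The 4 genes together had 62 reads in the dKO-labelled library and 17 in the WT library, a ratio of 3.29 (1.90 to 6.00), or 2.31 (1.34 to 4.22) against the measured-gene median.

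The mitotic kinases and the spindle checkpoint summed to 67 reads in the dKO-labelled library and 21 in the WT library over 6 genes, a ratio of 2.88 (1.74 to 4.94), or 2.02 (1.22 to 3.48) against the measured-gene median. Plk1, the Polo kinase of mitotic entry and spindle assembly, had 20 reads in the dKO-labelled library and 5 in the WT library (3.61, 1.31 to 12.3). Birc5 (survivin), which holds Aurora B at the centromere, had 11 and 2 (4.96, 1.08 to 46.0), while the kinases Aurka and Aurkb had 10 and 4 (2.25, 0.65 to 9.84) and 5 and 2 (2.25, 0.369 to 23.7). Bub1b, the checkpoint protein that holds back anaphase, had 10 reads in the dKO-labelled library and 2 in the WT library (4.51, 0.96 to 42.3). Cdc20, the activator of the anaphase-promoting complex, had 11 and 6 (1.65, 0.56 to 5.44). Its exons overlap those of Elovl1, which had 1 read in the dKO-labelled library and 8 in the WT library. Only Plk1 and Birc5 had an interval above 1 in this set of 6, where 40.3% of 10446 genes with over 3 reads in a library did.

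Hmgb2 and Mki67 were the G2/M members with the most reads. Hmgb2 had 98 reads in the dKO-labelled library and 34 in the WT library, a ratio of 2.60 (1.74 to 3.96). Mki67 had 32 and 12 reads, a ratio of 2.40 (1.21 to 5.12), and Top2a, the topoisomerase that untangles sister chromatids, 17 and 3 (5.11, 1.48 to 27.2). These 2 and Top2a together had a ratio of 2.70 (1.94 to 3.82), or 1.90 (1.37 to 2.69) against the measured-gene median. Cenpa, the histone that marks centromeres, had 15 reads in the dKO-labelled library and 5 in the WT library (2.70, 0.934 to 9.51), and the spindle motor gene Kif11 had 13 and 8 (1.46, 0.563 to 4.08). Both intervals included 1.

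**Figure D3:**
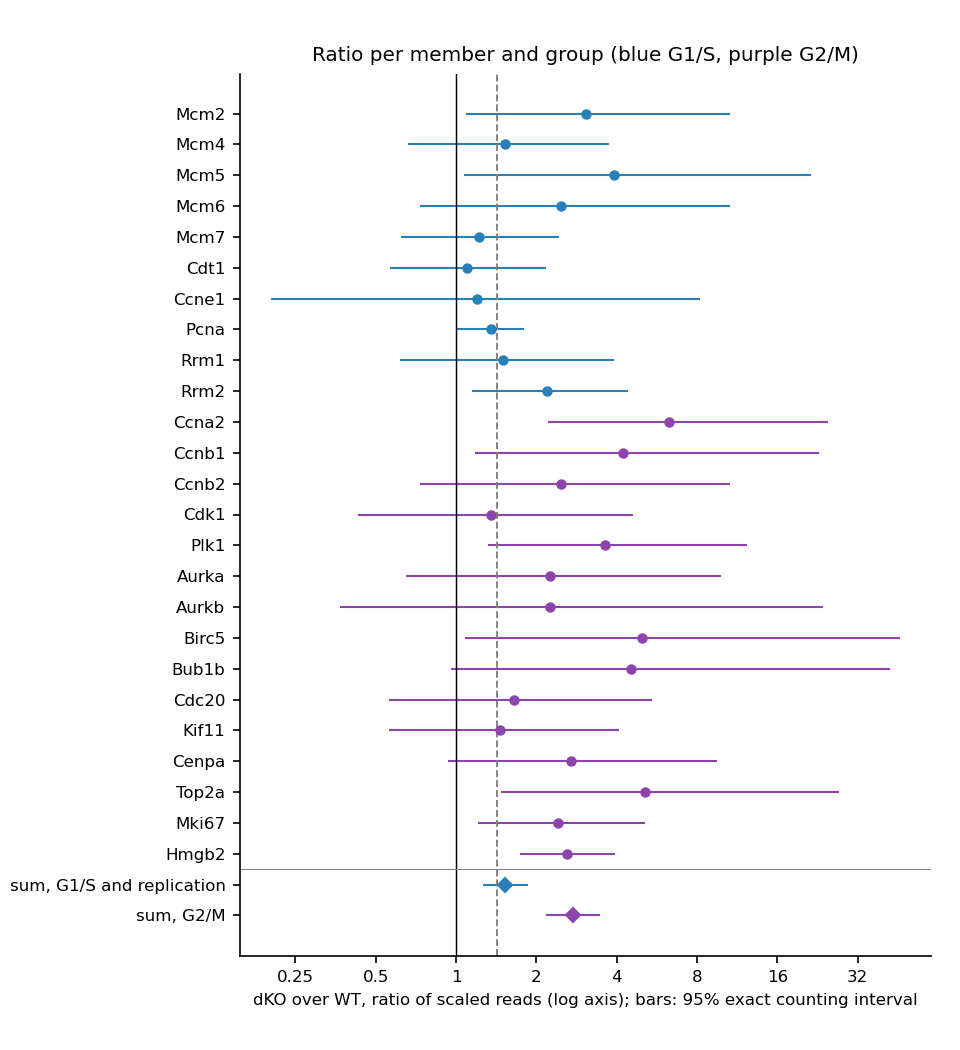
Ratio of scaled reads, dKO-labelled over WT, on a log axis with 95% exact counting intervals, for the 25 members with over 3 reads in a library (circles) and for the sums of each wave (diamonds). The solid line is a ratio of 1 and the dashed line the 1.42 of the median measured gene; the G1/S sum of 1.53 lies close to the dashed line and the G2/M sum of 2.74 to the right of it.

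Set against the whole table, the members' share past 2-fold was above that of genes at large, and their share with an interval above 1 was near it. Of 25 members with over 3 reads in a library, 16 had a ratio of at least 2 and 0 a ratio of at most 0.5, where 38.3% and 6.62% of 10446 genes did. The 16 were 12 of 15 G2/M members and 4 G1/S members (10 had over 3 reads). Among the 16, Top2a, Ccnb1 and Mcm5 (3 WT reads each) and Birc5, Bub1b and Aurkb (2 each) passed that filter on dKO reads alone. The filter thus favours members that are higher in the dKO-labelled library, and the count of 16 is a description only. Among all genes, the share past 2-fold rises as reads fall. It was 52.1% at 7 to 14 reads in both libraries together, 46.2% at 15 to 29, 42.5% at 30 to 69 and 30.7% in the bin that starts at 70. In these bins 4 of 4, 5 of 8, 2 of 2 and 1 of 1 G2/M members were past 2-fold, and 0 of 1, 3 of 5, 1 of 3 and 0 of 1 G1/S members. The counting interval lay above 1 for 11 of the 25 members (44.0%), against 40.3% of all genes, and below 1 for 0, against 8.46%. It lay above the median of measured genes for 3, Ccna2, Hmgb2 and Top2a (12%), against 20.5% of all genes, and below it for 0, against 19.1%. These last shares are near or below those of the table, and the low reads of the members limit them.

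By the 2-fold rule at a mean of at least 20 on log2((dKO + 1)/(WT + 1)), only 6 members were measured: Pcna, Mcm7, Rrm2, Cdt1, Mki67 and Hmgb2. Rrm2, Mki67 and Hmgb2 were at least 2-fold higher in the dKO-labelled library, at log2 ratios of 1.03, 1.14 and 1.33, and 0 were lower, where 26.2% of the 6001 reached 2-fold upward and 4.18% downward. Rrm2 and Mki67 reached that mean only through the dKO-labelled library, with 15.8 and 13.7 normalised reads in the WT library. Relative to the median of measured genes 0 of the 6 were past 2-fold, where 11.8% did so upward and 10.4% downward. In all, 1574 measured genes were higher and 251 lower, against 699 and 639 with TMM scaling. Of the 27 members, 0 had in the authors' deposited table an unadjusted p-value under 0.05, against 0.558% of all rows, and the smallest was 0.181, for Ccna2. An exact binomial test on the reads, which compares the libraries and not the conditions, called 6 of the 27 higher and 0 lower, against 23% and 4.82% of 15119 genes, so the share of members is that of the table.

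**Figure D4:**
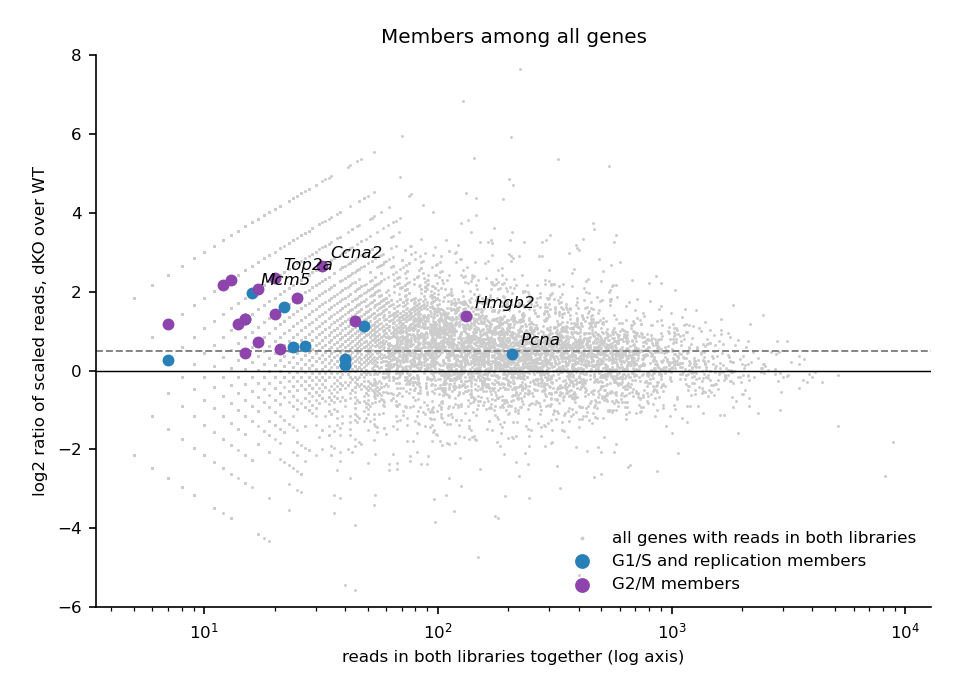
Log2 ratio of scaled reads, dKO-labelled over WT, against the reads in both libraries together (log axis), for genes with reads in both libraries and over 3 in 1 of them (grey), G1/S members (blue) and G2/M members (purple). The members lie among the low genes above a ratio of 1 (solid line at 0), and the dashed line is the median of measured genes at 0.51.

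Other genes of the same machinery, in lists that do not include the members, showed a like order. Of 43 other replication genes 35 had a row, with 829 reads in the dKO-labelled library and 486 in the WT library, a ratio of 1.54 (1.37 to 1.72), or 1.08 (0.966 to 1.21) against the measured-gene median. Of 37 other mitosis genes 35 had a row, with 465 and 185 reads, a ratio of 2.27 (1.91 to 2.70), or 1.59 (1.34 to 1.90) relative to it. Without the gene with the most reads in each list, Rfc2 and Bub3, the ratios were 1.47 (1.302 to 1.67) and 2.24 (1.83 to 2.76). The 2-fold rule called 3 of 12 measured replication genes and 2 of 3 measured mitosis genes higher, and 0 of either lower, against 26.2% and 4.18% of all measured genes. Of the 35 replication genes 23 had more scaled reads in the dKO-labelled library, 8 fewer and 4 none in both. Rnaseh2a, which encodes the catalytic subunit of the RNase that removes ribonucleotides from DNA, had 58 reads in the dKO-labelled library and 15 in the WT library (3.49, 1.95 to 6.62). Gins4, of the replication fork helicase, had 33 and 13 (2.29, 1.17 to 4.74). Among those with fewer scaled reads, named after their values were seen, the origin-firing factor Mcm10 had 18 and 28 reads (0.579, 0.302 to 1.09) and the polymerase delta subunit gene Pold3 74 and 81 (0.823, 0.593 to 1.14). Of the 35 mitosis genes 26 had more scaled reads in the dKO-labelled library, 4 fewer and 5 none in both. Ube2c, the ubiquitin-conjugating enzyme of mitotic exit, had 37 reads in the dKO-labelled library and 5 in the WT library (6.67, 2.62 to 21.7). Bub3 had 134 and 52 (2.32, 1.67 to 3.26) and the condensin gene Smc4 33 and 25 (1.19, 0.686 to 2.09). Among the 4 with fewer, Hmmr, also named after its values were seen, had 13 and 17 (0.689, 0.308 to 1.51).

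Upstream of the waves, 17 of 21 genes of the G1 cyclins, their kinases, the Rb family and E2F factors had a row. They held 1113 reads in the dKO-labelled library and 399 in the WT library, a ratio of 2.51 (2.24 to 2.83), or 1.77 (1.58 to 1.99) against the measured-gene median. Of the 8 measured, the 2-fold rule called 3 higher and 0 lower, against 26.2% and 4.18% of all measured genes. They were the cyclin gene Ccnd2 with 467 reads in the dKO-labelled library and 94 in the WT library (4.48, 3.58 to 5.65), the kinase gene Cdk4 with 104 and 23 (4.08, 2.58 to 6.71) and E2f2 with 61 and 16 (3.44, 1.96 to 6.39). E2f2 reached a mean of at least 20 only through the dKO-labelled library, with 17.9 normalised reads in the WT library. Without Ccnd2 the list's ratio was 1.91 (1.66 to 2.19), or 1.34 (1.17 to 1.54) against the measured-gene median. Of the 17 genes, 15 had more scaled reads in the dKO-labelled library and 2 fewer. These 2, named after their values were seen, were of the Rb family. Rb1 had 77 and 71 reads (0.978, 0.699 to 1.37) and Rbl1 8 and 12 (0.601, 0.213 to 1.60).

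Markers of the cells that could carry these transcripts differed between the libraries as well. Crypt stem and progenitor markers, all 12 with a row, summed to 337 reads in the dKO-labelled library and 213 in the WT library, a ratio of 1.43 (1.20 to 1.70), or 1.00 (0.843 to 1.197) against the measured-gene median, and 0 of 4 measured were past 2-fold. Among them Slc12a2 had 70 and 39 reads, Rnf43 33 and 18 and Axin2 40 and 33. Sox9, with the most reads, had 110 and 104 (0.953, 0.723 to 1.26), and without it, chosen after seeing the data, the list had 227 and 109 reads, a ratio of 1.88 (1.49 to 2.38), or 1.32 (1.05 to 1.68) against the measured-gene median. Olfm4 had 13 reads in the dKO-labelled library and 0 in the WT library, Myb 1 and 0, and Prom1 and Tnfrsf19 each 0 and 2. Smoc2, with 29 and 1 reads, and Lgr5, with 10 and 2, were named after their values were seen. Paneth cell markers, which also sit in crypts, summed to 3250 reads in the dKO-labelled library and 1756 in the WT library over 7 genes (1.67, 1.57 to 1.77), or 1.17 (1.11 to 1.24) against the measured-gene median. The largest ratios of these 7 were those of Defa26 (4.06), Ang4 (2.64) and Lyz1 (1.69). Those of Mmp7 (1.26), Defa24 (1.16) and Defa17 (1.40) were below the 1.42 of the median measured gene. Enterocyte markers summed to 14911 reads in the dKO-labelled library and 11347 in the WT library over 11 genes (1.18, 1.16 to 1.21), but their ratio against the measured-gene median was 0.834 (0.813 to 0.854), the other direction. Sis had 357 and 37 reads, Lct 847 and 184 and Vil1 1833 and 977, while Apoa1 (0.906), Apoa4 (0.933) and Krt20 (0.984) had ratios below 1.

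Stromal and muscle markers summed to 384 reads in the dKO-labelled library and 74 in the WT library over 10 of 11 genes, a ratio of 4.68 (3.64 to 6.08), or 3.29 (2.56 to 4.28) against the measured-gene median, the largest of the lists, with Acta2 at 72 and 3, Col1a1 at 43 and 4 and Col3a1 at 72 and 8. Myh11 had 1 and 0 reads and Dcn 0 in both. Lymphocyte and myeloid markers summed to 143 and 84 reads over 11 of 13 genes (1.53, 1.16 to 2.03), or 1.08 (0.819 to 1.43) against that median, with 64 and 48 for Lyz2, and Ptprc, which marks all leukocytes, had 0 in both. Cd3e, of the T cell receptor complex, had 3 and 0 reads. Of the 11, 9 had more scaled reads in the dKO-labelled library, 1 fewer and 1 none in both. Named after their values were seen, Csf1r had 23 and 10 reads, Cd3g 17 and 7 and Cd4 11 and 8. Cd68, the 1 with fewer, had 3 and 7. The 0 of Ptprc therefore does not show that leukocytes were absent. Endothelial markers summed to 49 and 53 reads over 6 of 7 genes (0.833, 0.553 to 1.25), or 0.586 (0.389 to 0.882) against that median. The sum rested on Tie1, with 5 and 48 reads. Without it, chosen after seeing the data, the other 5 genes had 44 and 5 reads, a ratio of 7.93 (3.15 to 25.6) in the other direction, with Lyve1 at 19 and 1, Plvap at 13 and 3, Vwf at 10 and 0 and Cdh5 at 1 and 0. The part of stromal, endothelial, immune or crypt cells in the ratios of the members was not tested.

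**Figure D5:**
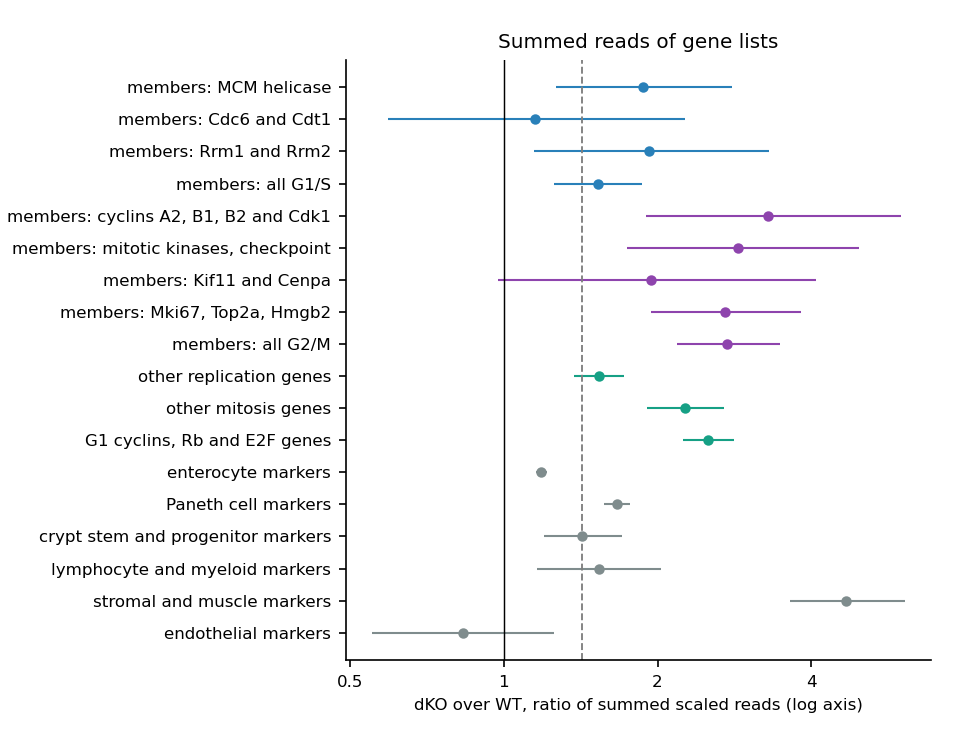
Ratio of summed scaled reads, dKO-labelled over WT, on a log axis with 95% exact counting intervals, for role groups of the members (blue and purple), other cell cycle genes (green) and cell type markers (grey). The G2/M groups and the other mitosis genes lie mostly right of the dashed line, the 1.42 of the median measured gene, and the stromal and muscle markers lie farthest right at 4.68.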

How the data were processed

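Per the labels' protocols, libraries were made with the TruSeq RNA v2 kit, which does not mark strand. The build mm9 and the tools TopHat and DESeq are named, with no role, per the submitters' processing notes. How reads were counted, and with which strand rule, is not given in the sources used here. Both deposited signal columns hold DESeq base means (normalised read counts), per the file headers. In 100% of 22040 rows each was a whole multiple, within 0.001, of the smallest value of its column, 0.949 (dKO) and 1.05 (WT). This is read as 1 added read, an inference, and reads were recovered as multiples minus 1. The deposited fold (ratio) and log2 columns are quotients of the base means, and the deposited p-value column is the authors' unadjusted one.

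The members, lists and rules were chosen with earlier results of these data known. Measured means a mean of at least 20, called means 2-fold on log2((dKO + 1)/(WT + 1)), with no test, except where the exact binomial test is named. Ratios divide recovered reads by the ratio of the deposited scales (1.11), with 95% Clopper-Pearson intervals. Ratios are left out where both libraries had at most 3 reads. Of 33 symbols turned into dates, 32 were restored by accession from RefSeq (GRCm38.p6). Lengths and overlaps came from GENCODE M21, and no mm9 coordinates are printed. In 20 of 24 member promoters the bases after the start matched a GENCODE transcript in sense. Named beyond the members are up to 3 measured genes per list with the largest log2 ratio, and markers at 0; some of these are not reported here. The functions were tested on simulated data. TMM came from edgeR 4.0.16 in R 4.3.3. Intervals used scipy 1.17.1, tables pandas 2.3.3 with numpy 2.4.6, and plots matplotlib 3.10.9, under Python 3.11.15.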

Additional observations from a re-analysis of the deposited data

How the results depend on the processing

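Each genotype had 1 library, so no replicate could be left out. No paired analysis was possible because each genotype has 1 library, so only 1 pair could be formed. Low reads limit single members: with a median of 5 WT reads, most intervals of a member's ratio span several-fold. The G1/S ratio of 1.53 was 1.24 with total reads, 1.06 with TMM, 1.07 with the median of measured genes set to 0 and 0.98, the other direction, with the upper quartile. The G2/M ratio of 2.74 was 1.90 with TMM, 1.93 with the median set to 0 and 1.76 with the upper quartile. Each of these scalings lowers all log2 ratios of recovered reads by its own constant. Log2 ratios with 1 added after scaling fall by less.

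The G2/M share of member reads was 65.7% (dKO) and 54.3% (WT) without Pcna, 42.1% and 28.3% without Hmgb2, and, chosen after seeing the data, 56.4% and 44% without both and 61.8% and 53.8% without members with overlaps or pseudogenes, where the difference fell to 8.005 percentage points, against 14.3 for all members.

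The median log2 ratio of the measured members, 0.72, was 0.23 once the median was set to 0, 0.10 under upper-quartile scaling, 0.43 under total reads and 0.21 under TMM. At a mean of at least 10 it was 1.08 over 14 members, at 5 it was 1.03 over 23 and with no filter 0.98 over 27. Members at least 2-fold higher numbered 3, against 1 with total reads or pseudocount 5, 0 under TMM or upper-quartile scaling or once the median was set to 0, 8 at a mean of 10 and 12 at 5 or with no filter, and 0 were lower in each. An exact binomial test on the reads, adjusted over 15119 genes and added after seeing the data, called 6 members higher (Ccna2, Hmgb2, Mki67, Plk1, Rrm2 and Top2a) and 0 lower, 6 of 27 against 23% of all genes. It compares the libraries, not the conditions.

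All genes higher and lower numbered 1574 and 251, against 721 and 617 once the median was set to 0, 584 and 780 under upper-quartile scaling, 1004 and 422 under total reads, 699 and 639 under TMM, 2815 and 455 at a mean of 5, 3704 and 892 with no filter and 3476 and 729 with the binomial test. Without members with overlaps or pseudogenes the G1/S and G2/M ratios were 1.83 (1.36 to 2.49) and 2.54 (1.96 to 3.34), and the intervals overlapped. With the dKO-labelled library thinned to the WT total, 26.7 members were expected to have a read.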

Other observations

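Of the other replication and mitosis genes, 9 were listed at 0 reads in both libraries: Orc1, Cdc45, Dnmt1, Dut, Kif20a, Spc25, Ttk, Cdc25b and Ect2. Dnmt1, the maintenance DNA methyltransferase, and Dut, which keeps uracil out of DNA, are used by all dividing cells. The zeros are given as the table lists them. Symbols with 1 row numbered 19551, of which 27.6% had no read in either library. Symbols with 2 or more rows numbered 1171, of which 18.4% had none.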
